A study of Arabidopsis thaliana with 15 samples.

Results

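The step from day 2 to day 4 of long days in Arabidopsis thaliana hypocotyls was measured by setting the 3 arrays of day 4 against the 3 arrays of day 2, across the 16550 genes that have a probe set annotated to exactly 1 gene. Of these, 538 fell, among them genes of mitosis, carbon fixation and flavonoid synthesis. Another 412 rose, among them 2 dehydrin genes, the photoperiod gene GI and 3 ATG8 genes of autophagy. The calls of these named rises were all lost when only the arrays of days 2 and 4 were fitted. These 6 arrays belong to a series of 15, with 3 on each of days 0, 1, 2, 4 and 10. All plants were Col-0, the common wild-type ecotype, grown for 6 weeks in short days of 8 h light at 22 °C and then moved to long days of 16 h light, which makes them flower. Each array holds RNA from a pool of 8 hypocotyls, so a day has n = 3 pools. Both groups were thus already in long days, with 2 and 4 days since the move, and plants kept in short days to the same age are not among the samples analysed here. In the text, values are deposited intensities on a linear scale, differences are day 4 minus day 2 on the log2 scale with the standard error (SE) of the fit, and a gene "rose" or "fell" only where the moderated test of limma gave a Benjamini-Hochberg adjusted p below 0.05.

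The hypocotyl is the stem between root and cotyledons. In flowering Arabidopsis it thickens through the vascular cambium, a ring of dividing cells that forms phloem to the outside and xylem to the inside, and the later xylem holds lignified fibres. Mitosis, primary wall loosening, secondary wall deposition and photosynthesis of the outer green cells all take place in this organ, so 1 pool mixes many cell types. With whole hypocotyls, fewer cells of a type and less RNA per cell cannot be told apart. Here a listed gene counts as measured only where its name was matched to a 1-gene probe set. A gene left unmatched may still be on the array, since 20927 of 38408 probe sets have no gene annotated. Markers of green tissue (5 measured of 28 listed), phloem (1 of 12) and root hairs (2 of 15) were matched. Of the listed xylem vessel and fibre genes and periderm genes 0 were matched to a 1-gene probe set, so these tissues are not analysed here. CLE41 and CLE44, genes for the peptide TDIF that keeps cambium cells dividing, had geometric means of 2216 and 1215 on day 2 and 2233 and 1134 on day 4. The phloem gene OPS had 164 on day 2 and 143 on day 4 (−0.20, adjusted p = 0.373). The root hair expansins EXPA7 (−0.12) and EXPA18 (−0.03) and 3 flower and pollen markers, AGL18, AGL104 and VGD1, were not called either.

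Of the 16550 genes, 950 (5.74%) were called, 412 of them higher (2.49%) and 538 lower (3.25%) on day 4. Most changes were moderate. The median of the called rises was a log2 difference of +0.48 and that of the called falls −0.50, and 28 rises and 33 falls reached 2-fold (0.169% and 0.199% of the genes). The median over all genes was −0.01. Among genes with a symbol, 147 of 1805 (8.14%) were called. In all 950 called genes the 3 pools of day 4 lay on one side of the 3 pools of day 2, which held without a test in 12.9% (higher) and 13.3% (lower) of all genes. Across probe sets, the correlation r within a day was 0.983 to 0.988, and that between day 2 and day 4 arrays was 0.978 to 0.986. Over all 38408 probe sets 2080 were called (5.42%), and of the 21686 without exactly 1 gene, whose genes are not named here, 1123 (5.18%). The count of 2080 depended on single pools: without day 2 replicate 2 it was 1296, without day 2 replicate 3 it was 1151, and without day 4 replicates 1, 2 and 3 it was 1176, 1371 and 1288. A fit of the 6 arrays alone, which estimates the spread from these pools only, called 311 probe sets, and most calls of single genes below were lost there. In that fit 1 gene of the cell division list was called, 4 of the wider mitosis list, 4 of the photosynthesis list, 1 expansin and 0 genes of the ABA, autophagy and floral transition lists, which are described below with the counts of the fit to all arrays.

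**Figure D1:**
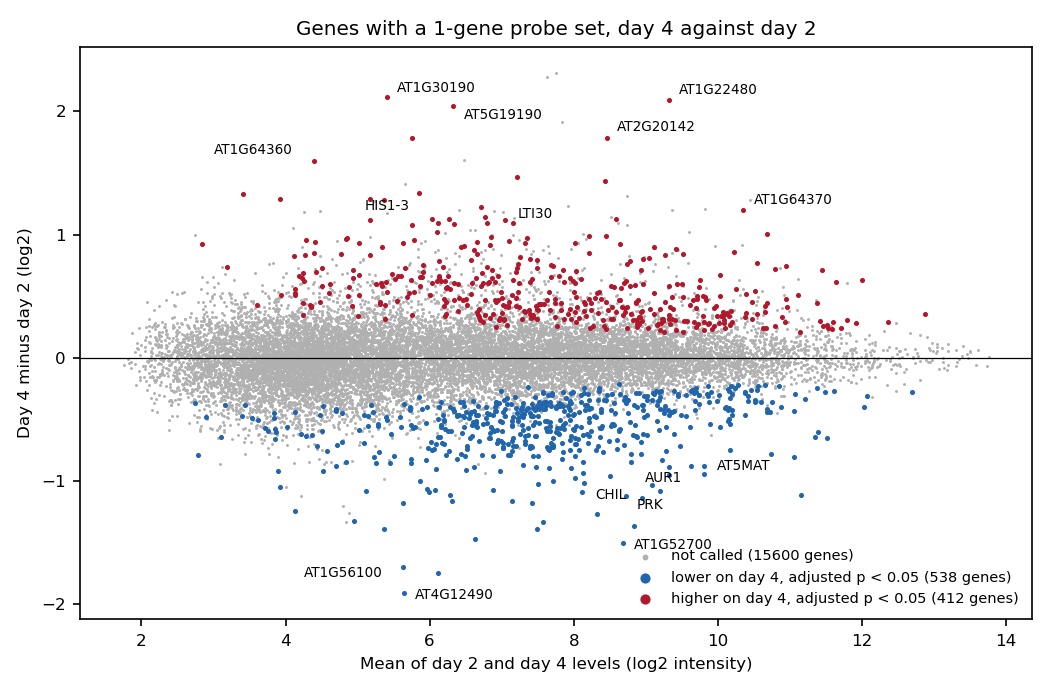
Difference day 4 minus day 2 (log2, vertical axis) against the mean level of both days (log2 intensity, horizontal axis) for the 16550 genes, each point being the mean of 3 pools per day. The 412 called rises are red, the 538 called falls blue and the uncalled genes grey, and named points include AT1G22480 at the top right and AT4G12490 at the bottom.

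The highest and lowest of the 5 daily means are a description of the called genes, since the call itself sets day 4 against day 2. Of the 412 genes that rose, 209 had their highest daily mean on day 10, 169 on day 4, 29 on day 0 and 5 on day 1. Of the 538 that fell, 229 had their highest mean on day 1, 192 on day 2 and 110 on day 0. Day 10 held the lowest mean of 368 of the falling genes and day 4 that of 144. For comparison, 4.88% of probe sets were called between days 0 and 1, 14.9% between days 1 and 2, 20.4% between days 0 and 2 and 17.1% between days 4 and 10, against 5.42% here.

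Genes of cell division were among the falling genes. All 6 measured members of the cell division and DNA replication list (27 listed) fell, with a median difference of −0.58, against 3.25% of all genes falling and a median of −0.01 over all genes. They are the Aurora kinases AUR1, AUR2 and AUR3, which phosphorylate histones and spindle proteins in mitosis, BUB3.1, a spindle checkpoint protein, HTR12, the centromeric histone H3, and PRL, a subunit of the replicative helicase known as MCM7. AUR1 (AT4G32830) had intensities of 1132, 999 and 1095 on day 2 and 605, 621 and 533 on day 4. The groups stood well apart, with every day 4 pool far below the lowest day 2 pool, and AUR1 was 1.84-fold lower (log2 −0.88 ± 0.10, adjusted p = 0.000726). Day 0 had a geometric mean of 531, so the day 4 level was again close to that of short days. AUR2 (AT2G25880) had 289, 305 and 356 on day 2 and 210.1, 205 and 214 on day 4 (log2 −0.59 ± 0.10, adjusted p = 0.00716). AUR3 (AT2G45490) had 287, 314 and 328 on day 2 and 222, 205 and 196 on day 4 (log2 −0.58 ± 0.10, adjusted p = 0.00701). Neither kinase had overlapping groups. HTR12 had 349, 401 and 381 on day 2 and 261, 278 and 271 on day 4 (log2 −0.48 ± 0.08, adjusted p = 0.00381), and BUB3.1 had 516, 485 and 460.3 on day 2 and 306, 352 and 319 on day 4 (log2 −0.58 ± 0.07, adjusted p = 0.00112). PRL changed least, with 557, 576 and 582 on day 2 and 405, 492 and 419.8 on day 4 (log2 −0.39 ± 0.09, adjusted p = 0.0357), a call lost without day 0 replicate 2, any day 2 pool or day 4 replicates 1 or 3, with an adjusted p of up to 0.136 over all alternatives.

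A wider list of 24 mitosis and cytokinesis genes, put together after the values were seen, showed 12 falls and 1 rise, with a median difference of −0.34, beside 3.25% of all genes that fell and 2.49% that rose. KINESIN-12B (AT3G23670), a motor protein of the phragmoplast that builds the new cell wall, had 324, 278 and 297 on day 2 and 157, 184 and 190.1 on day 4, a fall that passed the test (log2 −0.76 ± 0.10, adjusted p = 0.00126). FU (AT1G50240), the FUSED kinase needed for cytokinesis, had 411, 408 and 428 on day 2 and 233, 273 and 257 on day 4 (log2 −0.71 ± 0.07, adjusted p = 0.000223). In both genes the day 4 pools formed a separate lower group. The checkpoint kinase gene BUBR1 had 329, 327 and 349 on day 2 and 229.6, 236 and 214 on day 4 (log2 −0.57 ± 0.07, adjusted p = 0.00067). TOPII, topoisomerase II, which untangles sister chromatids, had 459, 446 and 459 on day 2 and 302, 315 and 320.0 on day 4 (log2 −0.54 ± 0.08, adjusted p = 0.00172). Within each day the TOPII pools differed by only a few percent. BUB3.2 (−0.42), WYR (−0.46), the Arabidopsis inner centromere protein, and UBC19 (−0.30), a ubiquitin-conjugating enzyme, fell as well, with all 3 calls lost without day 2 replicate 3 or day 4 replicate 1. ATMAP65-6, a microtubule-associated protein, was the member that rose (+0.27, adjusted p = 0.0353), a call lost in 10 of 23 alternatives. The other 11 did not pass, among them TUBG1 (−0.20), a gamma tubulin, and KINESIN-13A (−0.12). AUR1, FU, BUBR1 and TOPII kept their calls in all 23 alternatives, whereas the whole list's count fell from 13 to 9 without day 2 replicate 3 or without day 4 replicate 1.

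DNA replication and chromatin assembly had 2 called genes. Of 16 genes of DNA replication and chromatin assembly in a list chosen in the same way, 2 fell, PRL and ICU2 (AT5G67100), the catalytic subunit of DNA polymerase alpha, and 0 rose. The median was −0.14, and 3.25% of all genes fell. ICU2 had 486, 506 and 464 on day 2 and 378, 383 and 384 on day 4 (log2 −0.35 ± 0.07, adjusted p = 0.017), a call lost without day 2 replicate 2 or day 4 replicate 1. The count of 2 was 5 with dim probe sets left out, 4 with the offset of 16 or the trended prior, 1 with the replicate block and 3 without day 10 replicates 1 or 2. It was 1 without day 0 replicate 2, any 1 day 2 pool or day 4 replicate 3, and 0 without day 4 replicate 1.

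**Figure D2:**
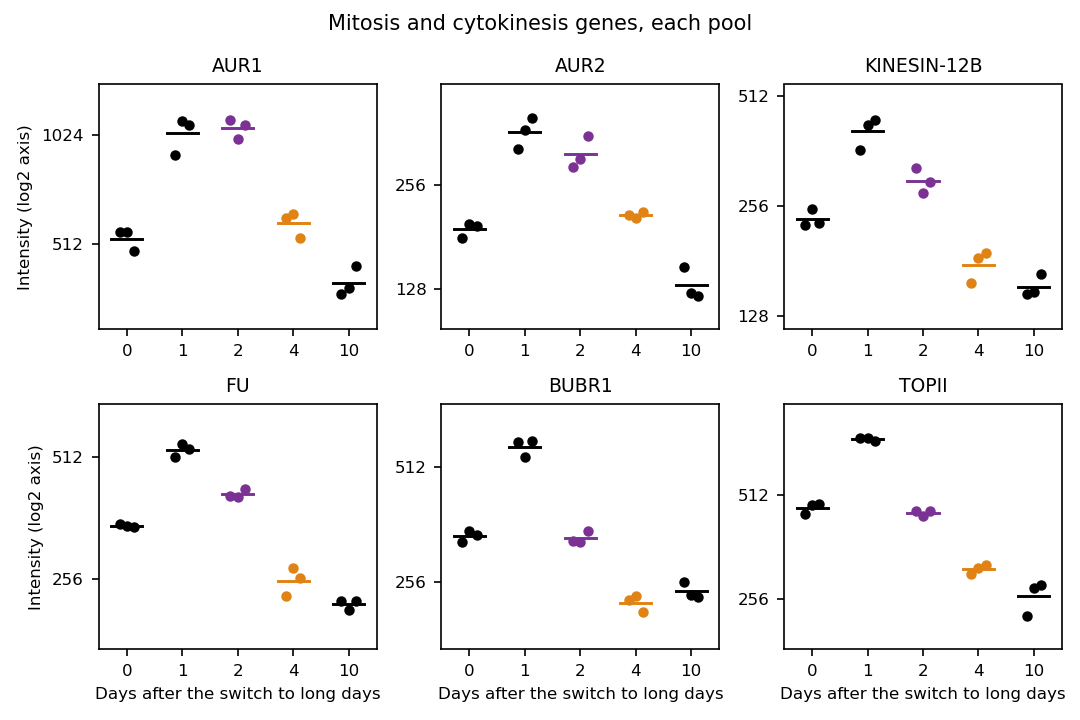
Intensity (log2 axis) of 6 mitosis and cytokinesis genes on days 0, 1, 2, 4 and 10 after the switch. Points are pools, bars geometric means, with day 2 in purple and day 4 in orange. In all 6 panels the 3 orange points lie below the 3 purple points, and AUR1 falls from 1074 to 585.

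AUR1, FU and TOPII had their highest daily means before day 4. AUR1 had geometric means of 531, 1036, 1074, 585 and 401 on days 0, 1, 2, 4 and 10. FU had 347, 534, 416, 254 and 222 on the same days, and TOPII 469, 742, 455, 312 and 261. In FU and TOPII the highest level was that of day 1 and day 4 was already below day 0. From day 4 to day 10 AUR1 fell further (log2 −0.55 ± 0.10, adjusted p = 0.00377), whereas BUBR1 did not pass the test there (log2 +0.10 ± 0.07, adjusted p = 0.36).

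Some nuclear genes of photosynthesis fell. Of 34 such genes in a list put together after the values were seen, 12 fell and 0 rose, with a median of −0.29, beside 3.25% of all genes that fell and a median of −0.01. The Calvin cycle enzymes PRK and SBPASE, which regenerate the carbon dioxide acceptor, had the largest falls of the list. PRK (AT1G32060), phosphoribulokinase, had 589, 617 and 676 on day 2 and 242, 335 and 292 on day 4, a level 2.18-fold lower (log2 −1.12 ± 0.15, adjusted p = 0.00126). SBPASE (AT3G55800), sedoheptulose bisphosphatase, had 295, 293 and 299 on day 2 and 133, 160.2 and 151 on day 4, 2.00-fold lower (adjusted p = 0.000293). The 3 day 2 pools of SBPASE were nearly equal, and all day 4 pools lay far below them. RCA (AT2G39730), rubisco activase, had 487, 487 and 492 on day 2 and 327, 337 and 305 on day 4 (log2 −0.60 ± 0.09, adjusted p = 0.00353). HPR, hydroxypyruvate reductase of photorespiration (−0.72), TAPX, the thylakoid ascorbate peroxidase (−0.70), CCB3, an assembly factor of the cytochrome b6f complex (−0.86), ATPC1, the gamma subunit of the chloroplast ATP synthase (−0.57), and PSBW, a photosystem II subunit (−0.51), fell too. ATAB2, TRXF2, LPA66 and CaS fell by 0.36 to 0.50 on the log2 scale, and each of these 4 calls was lost without day 2 replicate 3 or day 4 replicate 1.

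Other genes of green tissue did not pass the test. Of the 5 measured green tissue markers, 2 fell, PRK and RCA, while the chlorophyll-binding antenna genes LHCB4.1 (−0.14, adjusted p = 0.473) and LHCB4.2 (−0.21, adjusted p = 0.483) and PORB (−0.14, adjusted p = 0.493), an enzyme of chlorophyll synthesis, did not pass. PORB had 713, 698 and 856 on day 2 and 708, 658 and 688 on day 4, groups that overlap. Of 64 genes encoded in the plastid genome, 1 fell, petN (−0.31, adjusted p = 0.0464), and 0 rose, with a median of −0.02, beside 3.25% of all genes that fell. The petN call was lost in most alternatives. The count of plastid genes that fell was 6 with the trended prior, 5 with dim probe sets left out, 3 with the offset of 16 or without day 4 replicate 3, and 2 without day 1 replicate 2. It was 0 without any 1 day 0 or day 2 pool, day 1 replicates 1 or 3, day 4 replicates 1 or 2 or day 10 replicate 2. PRK went on falling to 124 on day 10 (log2 −1.21 ± 0.15, adjusted p = 0.000157), as did RCA, to 248 (log2 −0.38 ± 0.09, adjusted p = 0.0149).

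Flavonoid genes were among the falling genes. All 3 measured genes of the anthocyanin and flavonoid list (22 listed) fell, with a median of −0.75, beside 3.25% of all genes that fell. In a list of 8 flavonoid genes that was put together after the values were seen, 4 fell and 0 rose. CHIL (AT5G05270), a chalcone isomerase-like protein that promotes flavonoid production, had 442, 396 and 383 on day 2 and 198, 187 and 186 on day 4, 2.13-fold lower (log2 −1.09 ± 0.12, adjusted p = 0.000515). AT5MAT (AT3G29590), which attaches malonyl groups to anthocyanins, had 1266, 1163 and 1219 on day 2 and 701, 667 and 616 on day 4, 1.84-fold lower (log2 −0.88 ± 0.07, adjusted p = 6.47e-05). UF3GT (AT5G54060), an anthocyanin glycosyltransferase, had 1482, 1421 and 1581 on day 2 and 803, 938 and 929.6 on day 4, 1.68-fold lower (log2 −0.75 ± 0.09, adjusted p = 0.000685). In these 3 genes the lowest day 2 pool was far above the highest day 4 pool, and all 3 calls held in all 23 alternatives. DFR (AT5G42800), dihydroflavonol reductase, fell less, from pools of 7468, 6996 and 7359 to pools of 5937, 6044 and 6014 (log2 −0.28 ± 0.06, adjusted p = 0.0149), a call lost without day 2 replicate 1 or 3 or day 4 replicate 1. UGT78D2, a flavonoid glucosyltransferase, had 56.2, 55.9 and 54.7 on day 2 and 34.2, 35.6 and 37.5 on day 4 and did not pass (log2 −0.64 ± 0.25, adjusted p = 0.163), although its pools did not overlap. BAN, UGT78D1 and UGT78D3 lay between −0.12 and +0.01.

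**Figure D3:**
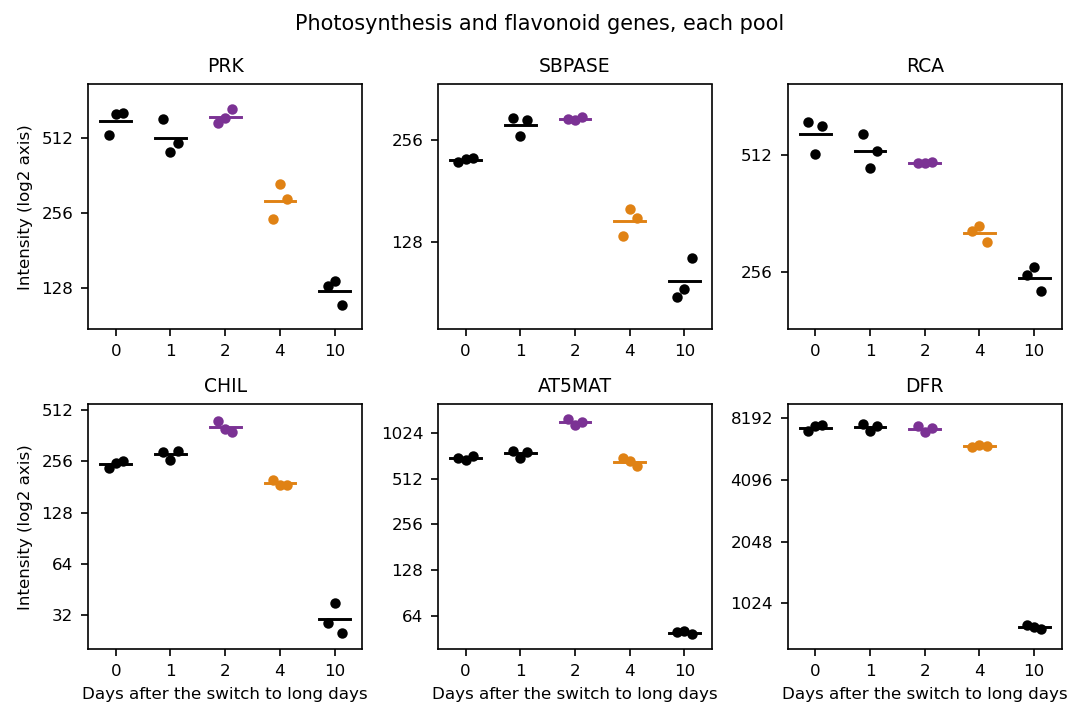
Intensity (log2 axis) of 3 photosynthesis genes (top) and 3 flavonoid genes (bottom) on days 0, 1, 2, 4 and 10. Points are pools and bars geometric means, with day 2 in purple and day 4 in orange. All 6 genes are lower on day 4 than on day 2 and lower again on day 10, when AT5MAT is at 49.5.

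CHIL and AT5MAT had risen before they fell. CHIL went from 246 on day 0 to 406 on day 2 (log2 +0.72 ± 0.12, adjusted p = 0.0015) and then to 190.4 on day 4. AT5MAT went from 699.9 to 1215 (log2 +0.80 ± 0.07, adjusted p = 1.15e-05) and back to 661. The falls between day 4 and day 10 were larger, with AT5MAT at log2 −3.74 ± 0.07, adjusted p = 3.27e-11 and DFR at log2 −2.93 ± 0.06, adjusted p = 3.43e-11.

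Wall genes moved in both directions. Of 24 measured expansins, secreted proteins that loosen walls as cells grow, 4 fell and 2 rose, with a median of −0.11. Over all genes 3.25% fell and 2.49% rose. EXPA15 (AT2G03090) had 547, 606 and 636 on day 2 and 298, 372 and 328 on day 4 (log2 −0.84 ± 0.11, adjusted p = 0.001) and kept its call in all 23 alternatives. EXPA8 (−0.74), EXPB2 (−0.56) and EXPB3 (−0.40) fell by less. EXLB1 (AT4G17030), an expansin-like protein, rose from 112, 99.9 and 143 to 228, 251 and 212 (log2 +0.97 ± 0.18, adjusted p = 0.00987), and EXPB4 rose by +0.83. The largest difference in the family was that of EXLA1 at +1.91, which did not pass (adjusted p = 0.151). The expansin count was 2 to 3 in place of 6 without day 2 replicates 2 or 3 or day 4 replicates 1 or 3. GH9B5 (AT1G19940), a family 9 glycosyl hydrolase as are the endoglucanases of plant walls, rose from 267, 249.7 and 229.6 to 536, 432 and 513, 1.98-fold higher (log2 +0.99 ± 0.17, adjusted p = 0.00623). It was the 1 call among 19 measured members of that family, a share near the 5.74% called over all genes. Its level reached 1775 on day 10. PME61 (AT3G59010), a pectin methylesterase, had 112, 124 and 111 on day 2 and 211, 249 and 206 on day 4 (log2 +0.93 ± 0.20, adjusted p = 0.0169), with the call lost without day 2 replicates 1 or 3 or day 4 replicate 2. It was at 464 on day 10.

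Few listed secondary wall genes were matched to a 1-gene probe set. They were 2 of 24 xylan genes, 5 of 27 lignin genes and 0 of 20 secondary wall regulator and cellulose genes. GUT2 (AT1G27440), the xylan synthesis gene also known as IRX10, had 1005, 1127 and 1058 on day 2 and 1259, 1323 and 1315 on day 4 (log2 +0.29 ± 0.08, adjusted p = 0.0493), a call lost in 15 of the 23 alternatives. IRX15, another xylan gene, had 50.4, 63.4 and 57.8 on day 2 and 66.0, 59.3 and 65.7 on day 4, groups that overlap, and did not pass (log2 +0.16 ± 0.09, adjusted p = 0.341). Of the 5 measured lignin genes 0 were called, with differences of −0.32 to +0.06, and for HCT, an enzyme of monolignol synthesis, the pools of both days lay between 2273 and 2545. TBL31 (+0.53, adjusted p = 0.0379) rose while TBL26 (−0.37) and TBL16 (−0.29) fell, among 23 measured genes of the TRICHOME BIREFRINGENCE-LIKE family, whose members acetylate wall polysaccharides. All 3 calls were lost without day 2 replicate 3 or without any 1 of the day 4 pools, and 5.74% of all genes were called.

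Some genes of cold and abscisic acid (ABA) responses rose. ABA is the stress hormone of drought and cold, and dehydrins are protective proteins made under both. Of 7 measured genes of the ABA-responsive list (29 listed), 3 rose and 0 fell, with a median of +0.35, against 2.49% of all genes rising. LTI30 (AT3G50970), a dehydrin, had 84.2, 87.2 and 97.5 on day 2 and 246, 175 and 170.1 on day 4, 2.17-fold higher (log2 +1.12 ± 0.14, adjusted p = 0.000855). The day 2 pools were close together and all day 4 pools lay well above them. COR47 (AT1G20440), another dehydrin, had 208, 159 and 120.5 on day 2 and 340.0, 248 and 225 on day 4 (log2 +0.75 ± 0.19, adjusted p = 0.0397). Its lowest day 4 pool was only just above its highest day 2 pool. HIS1-3 (AT2G18050), a linker histone induced by drought and ABA, had 36.4, 43.8 and 53.9 on day 2 and 75.9, 113 and 105 on day 4, 2.19-fold higher (log2 +1.13 ± 0.27, adjusted p = 0.034). The calls of COR47 and HIS1-3 were both lost when either day 2 replicate 2 or 3 or day 4 replicate 2 was left out, so that the count of the list was then 1. In all, COR47 lost its call in 11 of 23 alternatives, with an adjusted p of up to 0.213, and HIS1-3 in 7 of 22. KIN2, also called COR6.6, just missed the threshold, with 4992, 5066 and 5385 on day 2 and 6053, 6640.1 and 6140.3 on day 4 and no overlap (log2 +0.29 ± 0.08, adjusted p = 0.0525), and passed it under 7 alternatives. KIN1 (+0.35), COR15A (+0.12) and COR15B (−0.14) did not pass (adjusted p = 0.342, 0.562 and 0.47).

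LTI30 and COR47 had lower means on day 2 than on day 0, and HIS1-3 had a higher one. LTI30 was at 432 on day 0 and 89.7 on day 1, so the day 4 level of 194 was less than its level in short days. COR47 went from 1104 on day 0 to 159 on day 2 and 267 on day 4, and HIS1-3 from 22.3 to 44.1 and 96.5. Both dehydrins were lower again on day 10, LTI30 at 64.8 (log2 −1.58 ± 0.14, adjusted p = 1.12e-05) and COR47 at 155 (log2 −0.79 ± 0.19, adjusted p = 0.0134), whereas HIS1-3 was at 111 (log2 +0.20 ± 0.27, adjusted p = 0.687).

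**Figure D4:**
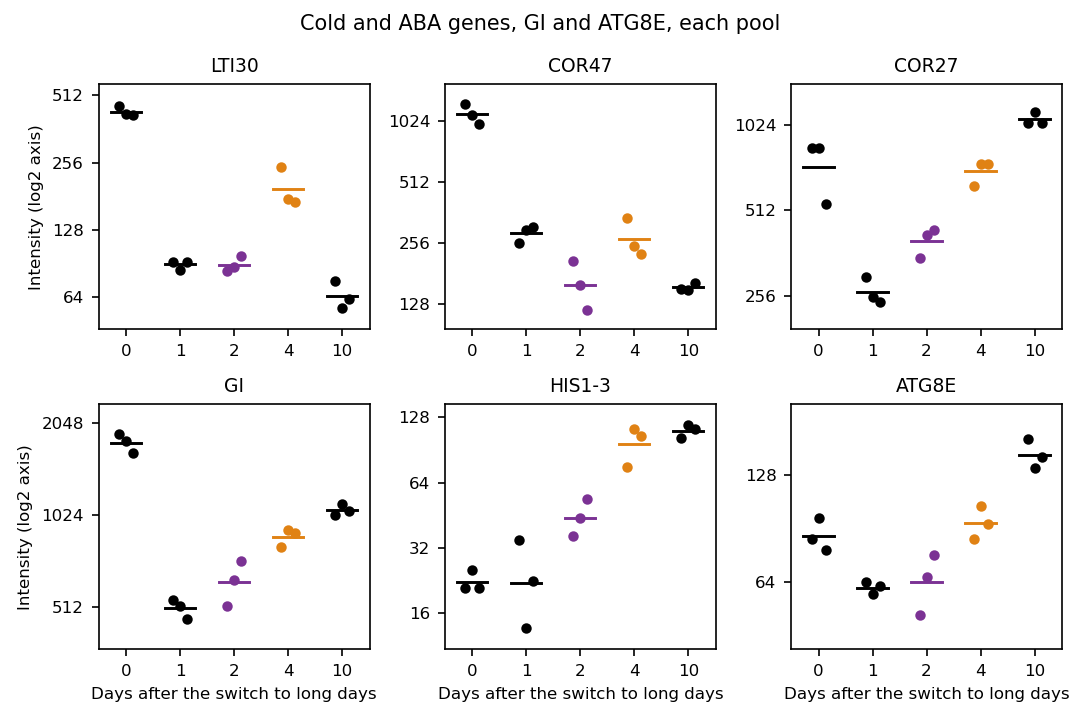
Intensity (log2 axis) of the dehydrin genes LTI30 and COR47, of COR27, GI, HIS1-3 and ATG8E on days 0, 1, 2, 4 and 10. Points are pools and bars geometric means, with day 2 in purple and day 4 in orange. LTI30 rises from 89.4 to 194 and is at 64.8 on day 10, while COR27 and GI go on rising to 1070.1 and 1063.

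Photoperiod and flowering genes were among the called genes. GI (AT1G22770), GIGANTEA, a clock protein that relays long days to flowering genes, was the 1 measured member of 29 in the clock list, with 519, 627 and 726 on day 2 and 809, 914 and 895 on day 4 (log2 +0.50 ± 0.11, adjusted p = 0.0242). Its day 2 pools were spread widely and its call was lost without day 2 replicates 1 or 2 or day 4 replicates 2 or 3. COR27 (AT5G42900), a cold- and light-regulated gene whose protein acts in the clock, had 348, 418 and 437 on day 2 and 622, 748 and 743 on day 4, 1.76-fold higher (log2 +0.81 ± 0.16, adjusted p = 0.0136), with the call lost without day 2 replicate 1 or day 4 replicates 2 or 3. Both genes are known to cycle over the day, and the time of day at which pools were taken is not stated in the labels used here. Of 8 measured floral transition genes (30 listed), 2 fell and 1 rose, beside 3.25% of all genes that fell and 2.49% that rose. The MADS-box gene AGL24 (AT4G24540), which promotes flowering, had 209.6, 185 and 213 on day 2 and 116, 136 and 129 on day 4 (log2 −0.67 ± 0.09, adjusted p = 0.00118), after a rise from 63.8 on day 0 to 202 on day 2. ATC (AT2G27550), a relative of the flowering repressor TFL1, had 867, 885 and 996 on day 2 and 607, 573 and 496 on day 4 (log2 −0.72 ± 0.19, adjusted p = 0.0463), a call lost in most alternatives, 3 of the scalings among them. AGL42 (AT5G62165), another MADS-box gene, rose from 45.0, 60.4 and 55.2 to 87.5, 97.2 and 89.9 (log2 +0.78 ± 0.14, adjusted p = 0.00737). FD, the partner of the flowering signal FT in the shoot tip, had 220.3, 232 and 215 on day 2 and 201, 219 and 186 on day 4, groups that overlap (log2 −0.14 ± 0.10, adjusted p = 0.457).

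Genes of autophagy included 3 ATG8 genes that rose. ATG8 proteins coat the membranes that enclose cell contents for recycling. Of 10 measured genes of the list (20 listed), 3 rose and 0 fell, beside 2.49% of all genes that rose. The median of the list was +0.20, against −0.01 over all genes, and all 10 differences were positive. ATG8E (AT2G45170) had 51.7, 66.1 and 76.3 on day 2 and 84.7, 105 and 93.5 on day 4 (log2 +0.56 ± 0.14, adjusted p = 0.0366), ATG8C (AT1G62040) had 332, 345 and 383 on day 2 and 454, 487 and 469.9 on day 4 (log2 +0.41 ± 0.08, adjusted p = 0.0105) and ATG8F (AT4G16520) had 1556, 1723 and 1815 on day 2 and 2005, 2191 and 2197 on day 4 (log2 +0.33 ± 0.08, adjusted p = 0.0414). All 3 were without overlap, but ATG8C alone kept its call when any single pool was left out, and the count of the list was 1 without day 1 replicate 3, day 2 replicates 1 or 2 or any day 4 pool. APL4 (AT2G21590), a large subunit of ADP-glucose pyrophosphorylase, the first enzyme of starch synthesis, was the 1 riser of 7 measured starch and sugar genes, with 845, 856 and 908 on day 2 and 1205, 1252 and 1042 on day 4 (log2 +0.42 ± 0.10, adjusted p = 0.0354), a call lost when any 1 day 2 pool or day 4 replicate 1 or 2 was left out. The sugar transporter genes SWEET13 (+0.30, adjusted p = 0.24) and SWEET4 (+0.76, adjusted p = 0.0755) did not pass.

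The largest rises were mostly in genes for which the tables used here give no symbol. AT1G22480 had 295, 339 and 296 on day 2 and 1304, 1159 and 1521 on day 4, 4.26-fold higher (log2 +2.09 ± 0.21, adjusted p = 0.000303), and its level went from 94.6 on day 1 to 3999 on day 10. Its groups were far apart and its call held in all 23 alternatives. AT1G64360 had 13.4, 11.3 and 11.5 on day 2 and 41.7, 37.0 and 31.6 on day 4, 3.03-fold higher (adjusted p = 0.000215), and AT5G39150 had 6.24, 6.87 and 6.92 on day 2 and 18.7, 15.9 and 16.0 on day 4 (log2 +1.33 ± 0.14, adjusted p = 0.000303), both called in all alternatives run. Both were dim on day 2, where no detection call shows a probe set to be above background, and with the offset of 16 their differences shrank to +0.91 and +0.53. AT1G30190 had the largest difference, with 25.6, 21.4 and 15.4 on day 2 and 54.1, 183 and 70.0 on day 4 (log2 +2.12 ± 0.36, adjusted p = 0.00544). Its day 4 pools differed widely, with replicate 2 far above the other 2.

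In a second group of large rises the day 2 pools disagreed. AT2G20142 had 371, 185 and 98.3 on day 2 and 655, 619 and 684 on day 4 (log2 +1.79 ± 0.42, adjusted p = 0.0289), AT5G19190 had 85.7, 37.1 and 19.4 on day 2 and 235, 142 and 129 on day 4 (log2 +2.04 ± 0.48, adjusted p = 0.0292) and AT3G29000 had 44.7, 39.0 and 14.0 on day 2 and 89.8, 118 and 94.8 on day 4 (log2 +1.79 ± 0.44, adjusted p = 0.0379). In each, day 2 replicate 3 was the lowest array of the 6 and the day 4 pools were the highest. AT5G40000 (+1.44), AT3G28580 (+1.47), AT1G05575 (+1.33), AT2G32140 (+1.29) and AT5G52760 (+1.29) complete the 12 largest rises, again with day 2 replicate 3 lowest. The calls of all 8 genes were lost without day 2 replicate 3, with adjusted p of up to 0.164 over all alternatives. Day 2 replicate 3 was the lowest of its day in 154 of the 412 rising genes, beside 5443 of all 16550 genes. Day 2 replicate 1 was the lowest in more of them, 178, beside 6054 of all genes. In the 538 falling genes day 2 replicate 3 was the highest of its day in 262, beside 5877 of all genes. Day 4 replicate 1 was the lowest of its day in 246 of these, beside 5643, and day 4 replicate 2 the highest in 257, beside 5435. The part of these pools in the calls was not tested.

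A list of 20 rapid stress-responsive regulators, put together after these values were seen, had 2 rises, 0 falls and a median of +0.48, beside 2.49% of all genes that rose and a median of −0.01. That count was 1 or 3 when any of 9 single arrays was left out, mostly through GRX480, whose call was lost in 12 alternatives. ORA47 (AT1G74930), an ERF transcription factor that acts in jasmonate synthesis, had 41.5, 39.9 and 37.5 on day 2 and 74.4, 85.2 and 71.3 on day 4, 1.94-fold higher (log2 +0.95 ± 0.17, adjusted p = 0.00669), and kept its call in all alternatives. GRX480 (AT1G28480), a glutaredoxin of salicylic acid responses, had 20.2, 17.8 and 15.4 on day 2 and 31.8, 24.4 and 32.8 on day 4 (log2 +0.73 ± 0.19, adjusted p = 0.042). The other 18 did not pass, with CML23 at +1.04 and CML38 at +0.87, calmodulin-like proteins, and CML37 at +0.80. ORA47 and GRX480 were both lower again on day 10, at 27.5 and 16.6.

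Among other genes with a symbol, 2 of the largest rises were in bZIP transcription factors. BZIP61 (AT3G58120) had 70.8, 43.6 and 54.5 on day 2 and 117, 111 and 126 on day 4, 2.13-fold higher (log2 +1.09 ± 0.18, adjusted p = 0.00464). The rise of bZIP48 (AT2G04038) was between low intensities, 16.6, 11.3 and 14.7 on day 2 and 23.5, 34.1 and 25.3 on day 4 (log2 +0.96 ± 0.23, adjusted p = 0.034), a call lost in 8 alternatives, among them the offset of 16 on the log scale. GT2 (AT1G76890), a trihelix DNA-binding protein, had 22.4, 22.4 and 17.4 on day 2 and 50.9, 38.2 and 34.2 on day 4 (log2 +0.98 ± 0.15, adjusted p = 0.00358). Its other probe set did not rise, with a log2 difference of −0.21 (adjusted p = 0.454), so the gene has no settled direction. ZW9 (AT1G58270) had 207, 173 and 187 on day 2 and 322, 337 and 427 on day 4 (log2 +0.93 ± 0.14, adjusted p = 0.0026). BGLU33 (AT2G32860), a beta-glucosidase, had 889, 901 and 882 on day 2 and 1507, 1718 and 1618 on day 4, 1.81-fold higher (log2 +0.86 ± 0.10, adjusted p = 0.00048), with nearly equal day 2 pools and the call held in all alternatives. Its day 0 level was 1854, so day 2 was its lowest day. BGLU47, of the same family, fell from 1909, 1943 and 1875 to 1429.8, 1457 and 1327 (log2 −0.44 ± 0.09, adjusted p = 0.018). Of the 20 measured family members these were the 2 called, beside 5.74% of all genes, and BGLU33 alone without day 2 replicates 2 or 3 or day 4 replicate 3.

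The largest falls were again mostly in genes without a symbol here, and none of those named here lost its direction under any alternative. AT4G12490 had 95.7, 93.1 and 103 on day 2 and 23.5, 27.8 and 26.4 on day 4, 3.76-fold lower (log2 −1.91 ± 0.20, adjusted p = 0.000373), on a course from 324 on day 0 to 12.1 on day 10. AT1G03020 fell over the same days from 636 to 33.7, with 159, 166 and 173 on day 2 and 65.1, 49.5 and 66.3 on day 4 (log2 −1.47 ± 0.15, adjusted p = 0.000293). AT1G52700 had 701, 714 and 668 on day 2 and 277, 239.8 and 222 on day 4, 2.83-fold lower (log2 −1.50 ± 0.09, adjusted p = 2.6e-05). Its level was 265 on day 0, so it had risen by day 2 and returned by day 4. AT1G56100 had 97.9, 66.3 and 111 on day 2 and 28.3, 28.5 and 26.1 on day 4 (adjusted p = 0.000338) with 38.9 on day 0, and AT4G11190 had 860.3, 661 and 697 on day 2 and 310.5, 281 and 265 on day 4 (log2 −1.37 ± 0.14, adjusted p = 0.000303) with 21.8 on day 10. AT3G46880 (−1.39) and AT1G22430 (−1.34) kept their call in every alternative, while AT1G76960 (−1.39), AT3G23530 (−1.32) and AT3G52740 (−1.25) lost their call in the fit of 6 arrays, and the last 2 also when single pools were left out.

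Some called genes lie side by side. Of 10409 pairs of measured genes that follow each other in the gene table, both were called in 53 pairs, 43 times in the same direction and 10 times in opposite directions. Over all genes 5.74% were called, so some such pairs arise without any link between neighbours. Whether 53 is more than that was not tested. AT1G47395 and AT1G47400 fell together, with 477, 521 and 493 on day 2 and 189.8, 185 and 248 on day 4 for the first (log2 −1.27 ± 0.12, adjusted p = 0.000223) and 189, 211 and 241 on day 2 and 88.9, 80.3 and 119 on day 4 for the second (log2 −1.17 ± 0.15, adjusted p = 0.00115). AT3G13403 and AT3G13404 fell too (log2 −1.75 ± 0.20, adjusted p = 0.000562, and log2 −1.16 ± 0.22, adjusted p = 0.0109). AT1G64370, beside AT1G64360, rose from 763, 902 and 931 to 1931, 1994 and 2013 (adjusted p = 5.45e-05). In the run of AT5G39110, AT5G39120 and AT5G39130 all 3 rose (+1.00, +0.75 and +0.67), near AT5G39150, and the call of AT5G39130 was lost without day 2 replicates 1 or 3 or day 4 replicates 1 or 2. Whether probe sets of such neighbours share sequence was not tested, since probe sequences are not used here.

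Other genes with large falls were ALDH11A3 (AT2G24270), a cytosolic aldehyde dehydrogenase of sugar phosphates, with 277, 278 and 227 on day 2 and 121, 153 and 112 on day 4 (log2 −1.03 ± 0.22, adjusted p = 0.017, lost without day 2 replicates 1 or 2 or day 4 replicates 1 or 3), and PDF1.4 (AT1G19610), a plant defensin, with 26.9, 32.2 and 35.9 on day 2 and 18.7, 14.9 and 16.3 on day 4 (log2 −0.92 ± 0.14, adjusted p = 0.00359). GH3.17 (AT1G28130), an enzyme that conjugates auxin to amino acids, fell from 169.5, 184 and 215 to 104, 143 and 102 (log2 −0.71 ± 0.13, adjusted p = 0.00975). It was the 1 call among 6 measured auxin genes, beside 5.74% of all genes called. Its relatives GH3.3 (−0.30) and WES1 (−0.09), also named GH3.5, did not pass (adjusted p = 0.145 and 0.716). Outside that list GH3.9 rose from a geometric mean of 91.8 to 116 (log2 +0.33 ± 0.07, adjusted p = 0.0142) and IAA18, a repressor of auxin responses, from 282, 262 and 257 to 425, 394 and 341 (log2 +0.53 ± 0.11, adjusted p = 0.0191). HAT2, a homeodomain transcription factor, fell (−0.38). All 3 calls were lost without day 2 replicate 3, that of GH3.9 also without day 4 replicate 3, and those of IAA18 and HAT2 also without day 2 replicate 2 or day 4 replicate 1. None of the genes of the cambium (6 measured), gibberellin (4), cytokinin (2) and jasmonate (2) lists was called. Nor was any of 17 CLE and 18 RALF-like peptide genes, 10 xyloglucan endotransglucosylases and 8 peroxidases. The same held for 9 genes of the tubulin list, in which PFI and POR are tubulin-folding factors rather than tubulins. In the cambium list the differences ran from −0.47 for RR16, a cytokinin response regulator, to +0.09 for MOL1, a receptor-like kinase. XTH16 had the largest difference of the xyloglucan enzymes, +1.00, and missed the threshold (adjusted p = 0.0528). It passed under 6 alternatives, among them those without day 0, day 1 or day 2 replicate 1, and XTH32 passed under 3. With 3 pools a day, the median SE of a gene's difference was 0.12 on the log2 scale, so changes of that size were not detectable.

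Several further regulators and enzymes with a symbol, chosen after their values were seen, were called in all alternatives run. SIS (AT5G02020) had 69.0, 70.8 and 77.0 on day 2 and 140.1, 126 and 132 on day 4 (log2 +0.88 ± 0.09, adjusted p = 0.000373), while its level on day 10 was 66.2. OCT1 (AT1G73220), an organic cation transporter, had 32.1, 31.8 and 26.0 on day 2 and 55.4, 60.7 and 50.7 on day 4 (log2 +0.90 ± 0.12, adjusted p = 0.00122) and SHI (AT5G66350), a zinc finger transcription factor, had 88.3, 91.1 and 94.9 on day 2 and 136, 155 and 161 on day 4 (log2 +0.71 ± 0.10, adjusted p = 0.00202). In all 3 the day 4 pools were clearly the higher group, and OCT1 and SHI were higher still on day 10, at 73.7 and 221. APS4 (AT5G43780), an ATP sulfurylase that takes up sulfate into metabolism, rose from 334, 343 and 351 to 496, 552 and 535 (log2 +0.62 ± 0.10, adjusted p = 0.00479). Among the falls, VPS2.2 (AT5G44560), a subunit of the ESCRT-III membrane complex, went from 234, 245 and 260.4 to 168, 172 and 162 (log2 −0.56 ± 0.07, adjusted p = 0.000996) and ATLP-1 (AT1G18250), a thaumatin-like protein, from 710.4, 690.0 and 749 to 453, 511 and 468 (log2 −0.59 ± 0.09, adjusted p = 0.00233). JASON (−0.71) and the cysteine-rich peptide gene LCR68 (−0.64) complete this group. LCR68 was the 1 call among 63 genes of its family, a smaller share than the 5.74% called over all genes.

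Other called genes with a symbol, also chosen after their values were seen, went in either direction. GAMMA-VPE (AT4G32940), a vacuolar processing protease, rose from 2963, 3589 and 3385 to 4615, 5627 and 5118 (log2 +0.63 ± 0.11, adjusted p = 0.00811) and was at 6787 on day 10. CYS1, a cystatin that inhibits proteases, rose from 2419, 2529 and 2482 to 3049.8, 2941 and 3123 (log2 +0.29 ± 0.05, adjusted p = 0.00751). The ubiquitin-conjugating enzyme genes UBC32 (+0.29) and UBC28 (+0.29) rose. TMT2, a sugar transporter of the vacuole membrane, rose from 679, 673 and 710.4 to 859, 866 and 811 (log2 +0.30 ± 0.06, adjusted p = 0.0172). SDH1-1, a subunit of the mitochondrial succinate dehydrogenase, fell from 1691, 1551 and 1673 to 1399, 1341 and 1357 (log2 −0.26 ± 0.06, adjusted p = 0.018), and ACLB-1 (−0.27), a subunit of ATP-citrate lyase, and PYRB (−0.30), an enzyme of pyrimidine synthesis, fell too. PMEAMT, a phosphoethanolamine methyltransferase of membrane lipid synthesis, fell from 767, 777 and 761 to 608, 530.0 and 566 (log2 −0.44 ± 0.06, adjusted p = 0.00218). When single pools were left out, GAMMA-VPE, CYS1, PYRB and PMEAMT kept their calls, whereas UBC32, UBC28, TMT2, SDH1-1 and ACLB-1 lost theirs in some cases.

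**Figure D5:**
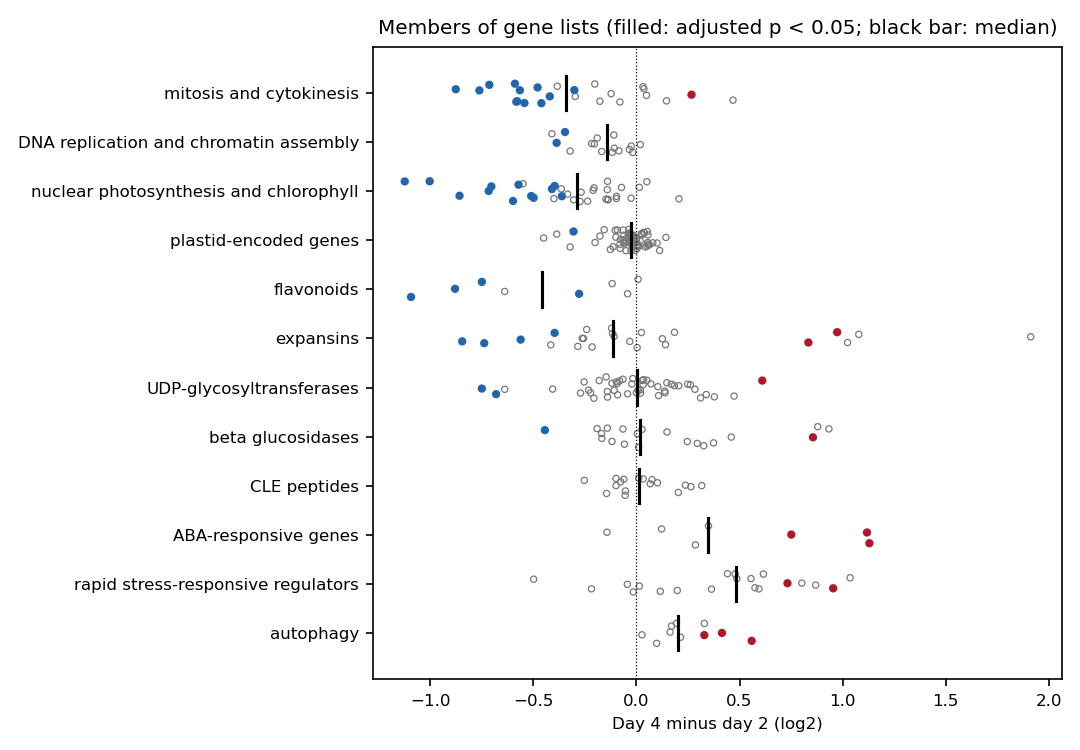
Difference day 4 minus day 2 (log2, horizontal axis) of each measured member of 12 gene lists, 1 row per list, with points spread vertically for legibility only. Filled points passed the test (red higher, blue lower), open points did not, and black bars are list medians. Mitosis, nuclear photosynthesis and flavonoid genes, in lists put together after the values were seen, lie mostly left of 0. Plastid-encoded genes centre on 0 with a median of −0.02.

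The step from day 2 to day 4 differed from the step before it for many genes. The contrast of both steps, (day 4 minus day 2) minus (day 2 minus day 0), was called in 1440 of 16550 genes (8.7%), 635 higher (3.84%) and 805 lower (4.86%). The same day 2 pools enter both steps, and the genes named here were chosen for their change from day 2 to day 4, which favours large values of this contrast. Over all probe sets 3365 (8.76%) were called, and without day 2 replicates 2 or 3 the count was 1990 or 1726. Some genes turned from a rise to a fall. AUR1 rose from day 0 to day 2 (log2 +1.02 ± 0.10, adjusted p = 4.47e-05) and fell after it, a difference between the steps of log2 −1.89 ± 0.18, adjusted p = 0.00014. AGL24 did the same (log2 +1.66 ± 0.09, adjusted p = 3.11e-07, then a fall), with log2 −2.34 ± 0.15, adjusted p = 1.2e-05, as did AT1G52700, with log2 −2.89 ± 0.16, adjusted p = 4.11e-06. ATC rose first (log2 +2.00 ± 0.19, adjusted p = 2.18e-05) and then fell, with log2 −2.72 ± 0.32, adjusted p = 0.000469. Others turned from a fall to a rise. LTI30 fell from day 0 to day 2 (log2 −2.27 ± 0.14, adjusted p = 8.36e-07) before it rose, a difference of log2 +3.39 ± 0.24, adjusted p = 1.68e-05, and BGLU33 did so with log2 +1.91 ± 0.17, adjusted p = 7.09e-05. GI fell by day 2 (log2 −1.52 ± 0.11, adjusted p = 3.78e-06) and rose after it, with log2 +2.01 ± 0.19, adjusted p = 0.00014.

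In AT4G12490 and AT1G22480 the difference between the steps did not pass the test. AT4G12490 fell in both steps (log2 −1.73 ± 0.20, adjusted p = 0.000117 in the first), and the second minus the first was small (log2 −0.18 ± 0.35, adjusted p = 0.826). AT1G22480 rose in both, with log2 +1.17 ± 0.21, adjusted p = 0.00211 in the first and a difference between steps of log2 +0.92 ± 0.37, adjusted p = 0.156. PRK was nearly level from day 0 to day 2 (log2 +0.05 ± 0.15, adjusted p = 0.854) and fell from day 2 to day 4, and here the steps differed (log2 −1.18 ± 0.26, adjusted p = 0.0146). APL4 rose in both steps, with log2 +1.54 ± 0.10, adjusted p = 1.72e-06 in the first and less in the second (difference log2 −1.12 ± 0.18, adjusted p = 0.00281). GH3.3 had risen from 41.4 on day 0 to 177 on day 2 and did not pass from day 2 to day 4, with overlapping pools of 199, 163 and 172 on day 2 and 164, 144 and 127 on day 4, and its steps differed by log2 −2.40 ± 0.19, adjusted p = 4.47e-05.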

How the data were processed

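The deposited values are array intensity on a linear scale, 1 column per array, positive and with nearly equal distributions. Per the submitters' processing notes, Partek and RMA were used, with versions, roles and genome build not given in the sources used here. Intensities were taken to log2 with no offset and no further scaling. Of 38408 probe sets, 16722 have exactly 1 gene (16574 matched the TAIR10.1 gene table by gene identifier, 96 by locus tag, 52 not), 759 several and 20927 none. The 1-gene probe sets give 16550 genes, the probe set with the highest mean being used. That gene table served for names and neighbours only, and holds no descriptions, so families were found from synonyms.

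limma 3.58.1 (R 4.3.3) was fitted to all 15 arrays with 1 mean for each day (10 residual degrees of freedom). Tests are two-sided with Benjamini-Hochberg adjustment over all probe sets, and the threshold is 0.05. Each replicate is a pool of its own plants. The tests see only the spread among pools, and the number of arrays sets their precision. The median residual SD was 0.175. The code was tested on simulated data. Figures used matplotlib 3.10.9 in Python 3.11.15.

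Named genes are the 12 largest called rises and falls without overlap between pools, the 10 largest with a symbol in each direction, and up to 5 members of each list by adjusted p (all of lists with 6 or fewer). All other named genes were chosen after their values were seen. Members and lists were chosen with earlier results of these data known. Lists were described by counts and medians only, and 1 list is not reported here. The alternatives were 3 scalings, a filter on dim probe sets, an offset of 16, a trended robust prior, the replicate number as a block, the 6 arrays of days 2 and 4 alone, and leaving out each of the 15 arrays.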

Additional observations from a re-analysis of the deposited data

Results flagged for a closer look

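The step from day 2 to day 4 and the step from day 0 to day 2 are effects of 2 successive intervals under the same contrast of later minus earlier day, and the test of their difference was called for 3365 of 38408 probe sets (8.76%). Among the 10 largest rises and 10 largest falls with a symbol, 9 genes passed it and were also called in each step, in opposite directions. They were chosen for their change from day 2 to day 4, which enters this difference, so their values are a description. The second step minus the first was +3.59 for bZIP48, +3.39 for LTI30, +1.63 for ORA47 and +1.48 for GT2 on the log2 scale, each a fall from day 0 to day 2 followed by a rise. It was −1.89 for AUR1, −1.81 for CHIL, −1.68 for AT5MAT, −1.40 for SBPASE and −1.11 for KINESIN-12B, each a rise followed by a fall. The value of GT2 rests on 1 of its 2 probe sets, and bZIP48 was dim on day 2. Both steps share the 3 day 2 pools, and the part of these shared pools in the differences was not tested.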

How the results depend on the processing

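With 3 pools a day, counts moved with the pools used. The 2080 calls of day 4 against day 2 became 3200 when probe sets below the median level were left out, 311 with the 6 arrays of days 2 and 4 alone, and 1151 to 2008 when single arrays were left out, lowest without day 2 replicate 3. Other counts ran from 1641 with the replicate block to 2796 with the trended prior. The 3365 calls of the difference between the steps became 1726 to 3357 when single arrays were left out. They were lowest without day 2 replicate 3 (1726) and day 2 replicate 2 (1990), and 2795 with the replicate block. They were more with dim probe sets left out (4529), the trended prior (4225) and the offset of 16 (3947). For day 4 against day 2, the share of calls that were higher was 38.2% in the values as deposited. It was 46.4% after cyclic loess, the widest gap among the scalings for that comparison. For the difference between the steps the share was 45.7% as deposited and 37.5% after median centring. Deviations of same-numbered day 2 and day 4 pools correlated at 0.018 to 0.084, and those of other-numbered pools at −0.104 to 0.041. Of 3 day 2 pools, 2 correlated best with their own number. These few values cannot show whether replicate numbers pair the pools. Of 178 called genes tracked, 38 kept their call in all alternatives run for them (23 at most, 1 fewer for dim genes), 140 lost it in at least 1, and 0 reversed. For losses in the fit of 6 arrays, fewer samples are part of that fit's construction. For the other losses the cause was not tested. Depth does not apply to arrays, and dim genes such as bZIP48 are limited by signal over background.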
